A study of Mus musculus with 10 samples.

Results

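Cytochrome P450 enzymes are haem proteins of the endoplasmic reticulum and mitochondria that insert an oxygen atom into lipids, hormones, drugs and other foreign compounds, and the liver is their main site. The mouse genes are called Cyp, with a number for the family, a letter for the subfamily and a number for the gene. Here they were taken as every gene of the array whose symbol has that form, 89 of the 22180 genes measured, with no reference to their levels. They belong to 15 families and lie on 14 chromosomes, and 47 of them are Cyp2 genes, 15 are Cyp4 genes and 7 are Cyp3 genes.

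Transcripts were measured on 10 arrays of bulk RNA: 3 of hepatocyte-like cells, made from embryonic stem cells in culture, 3 of hepatocytes from adult liver, and 4 of undifferentiated embryonic stem cells. All 10 samples carry 1 strain label, with the transgene Tg(CAG-luc, GFP)L2G85Chco, in which the broadly active CAG promoter drives luciferase and green fluorescent protein, and all 10, adult hepatocytes included, are labelled as below passage 20. The labels name no treatment, age or sex and no number of lines or animals, and the replicates are called biological replicates with no further detail, so each p-value reflects only the variation among these samples, which may be technical. The series title concerns NKG2D, a receptor of natural killer cells, and hepatic cells made from stem cells, so the Cyp genes bear on how hepatic those cells were.

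Families 1 to 3 mostly oxidise foreign compounds and are induced through receptors such as the aryl hydrocarbon receptor, the pregnane X receptor and the constitutive androstane receptor. Family 4 mainly oxidises fatty acids, and the remaining families make or break down defined molecules: bile acids, steroid hormones, vitamin D and retinoic acid. In liver most of these genes are switched on around or after birth, so that they serve as markers of mature rather than fetal hepatocytes, and several mouse genes differ between male and female liver.

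All levels below are log2 signals, and a difference of 1 on this scale is a doubling. A gene is called higher or lower where limma's test across all 22180 genes gave a Benjamini-Hochberg adjusted p under 0.05 and the difference was at least 1. Each difference is followed by its standard error in that fit, and adjusted p-values come from it. The number of arrays limits the precision. In bulk RNA, fewer cells of a kind and less RNA per cell cannot be told apart. The probes of an array differ in how brightly they bind, so levels are compared between samples and never between genes. Array medians lay between 4.91 and 5.07, which places levels near 5 in the middle of all values.

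The labels were checked against markers of each cell kind. Of 8 hepatocyte markers, 7 were higher in adult hepatocytes than in stem cells and 2, the plasma protein genes Ttr and Apoa1, were higher in hepatocyte-like cells than in stem cells. All 6 stem cell markers were lower in hepatocyte-like cells and in adult hepatocytes than in stem cells. The adult samples also carried markers of other liver cells: 5 of 6 sinusoidal endothelial markers and 4 of 6 Kupffer cell markers were higher than in stem cells. One of each list was lower, Pecam1 by a difference of −2.23 ± 0.19 and Cd68 by −2.46 ± 0.27. The mean level over the endothelial list was 5.505 to 5.82 in hepatocyte-like cells, 7.60 to 7.80 in adult hepatocytes and 5.39 to 5.68 in stem cells, and their part in the Cyp results was not tested. The hepatocyte-like samples carried connective tissue markers, 4 of 6 being higher than in stem cells, and bile duct markers, 3 of 4, with Epcam at −0.89 ± 0.23. Against adult hepatocytes, 4 of the 6 connective tissue markers were higher in hepatocyte-like cells and 2 lower. In adult hepatocytes 2 of the 6 were higher than in stem cells, Dcn among them by 5.16 ± 0.42, and 1, Des, was lower. Dcn averaged 9.03 in adult hepatocytes and 7.13 in hepatocyte-like cells. The mean level over the 6 connective tissue markers was 7.85 to 9.45 in hepatocyte-like cells, 6.39 to 6.70 in adult hepatocytes and 4.96 to 5.15 in stem cells. One hepatocyte-like array stood apart: Alb, which encodes albumin, was at 10.80 in replicate 3, against 4.85 and 5.14 in the other 2 hepatocyte-like arrays, and Cyp results that rest on replicate 3 are given with and without it.

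**Figure D1:**
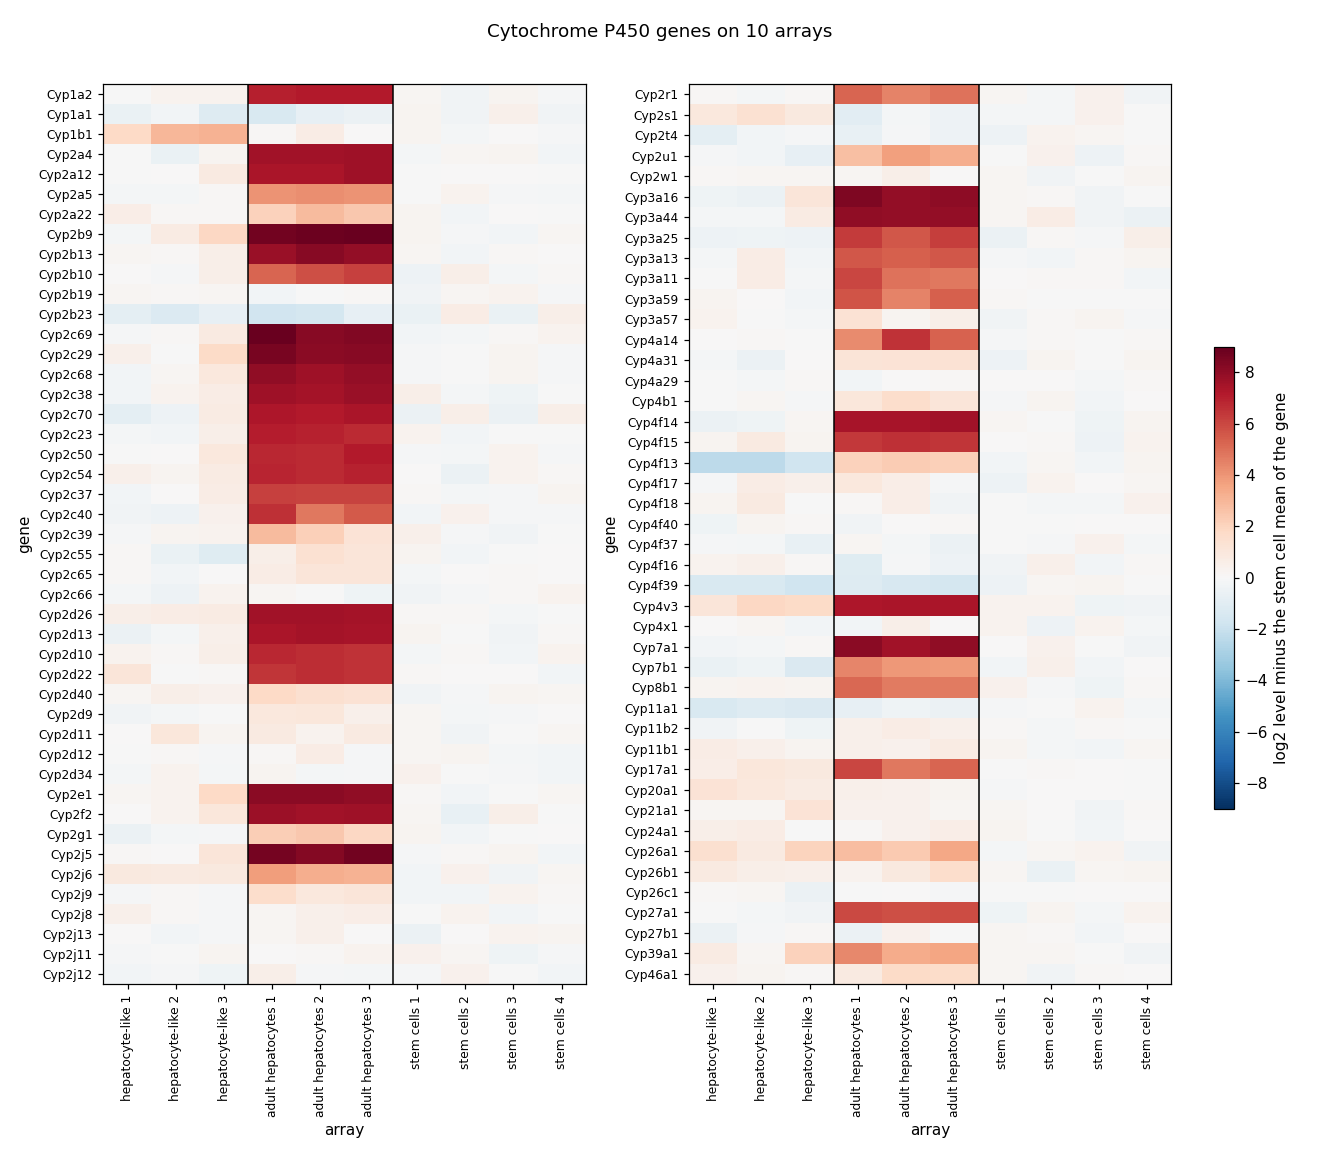
Log2 level of each of the 89 Cyp genes minus that gene's mean over the 4 stem cell arrays (colour), with genes in rows by family and arrays in columns, hepatocyte-like cells first, then adult hepatocytes, then stem cells. The adult columns stand above the stem cells in the 53 genes called higher, by 1.21 to 8.80 on average, and the hepatocyte-like columns differ from stem cells by a call in 7 genes.

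The Cyp genes separated adult hepatocytes from both other kinds. Against stem cells, 53 of the 89 genes (59.6%) were higher in adult hepatocytes and 2 were lower, where 11.0% of all genes were higher and 15.6% lower, or 26.6% in either direction. The 53 differences ran from 1.21 to 8.80, with 36 genes at 5 or more and 20 at 7 or more. The median difference was 2.47 over all 89 genes and 0.05 over all genes tested.

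Hepatocyte-like cells showed little of this difference. Against adult hepatocytes, 54 of 89 genes (60.7%) were lower in hepatocyte-like cells and 2, Cyp1b1 and Cyp2s1, were higher, against 9.12% and 13.9% of all genes, or 23.0% in either direction. Against stem cells, 4 genes were higher in hepatocyte-like cells and 3 lower, 4.49% and 3.37% of the 89, against 8.61% and 7.35% of all genes, or 16.0% in either direction. The shares of Cyp genes called in this comparison were therefore below those of all genes, and the median difference was 0.13 over the Cyp genes.

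Of the 53 genes higher in adult hepatocytes than in stem cells, 50 were not called between hepatocyte-like cells and stem cells, with differences from −0.75 to 0.997. For 41 of the 53 genes the 95% interval of that difference lay wholly within 1 of 0 on the log2 scale. The adult comparison with stem cells and the hepatocyte-like comparison with adult hepatocytes share the adult arrays, so their counts are not separate evidence. At a level of 5.5, taken as the upper edge of dim signals, 16 Cyp genes had a mean at or above it in hepatocyte-like cells, 59 in adult hepatocytes and 12 in stem cells, and 25 were below it in all 3. In any group 64 of the 89 Cyp genes reached this level, against 13247 of all 22180 genes. The level takes no account of how brightly each gene's probes bind, and the share of all genes was not counted group by group.

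Cyp2e1, whose enzyme oxidises ethanol and acetone, was at 5.21, 5.33 and 6.83 in hepatocyte-like cells, at 13.13, 13.20 and 13.04 in adult hepatocytes and at 5.12, 4.81, 5.03 and 5.22 in stem cells. The adult arrays stood far above all others, hepatocyte-like replicate 1 lay within the stem cell range, and replicate 3 was the highest of the hepatocyte-like arrays. The difference was 8.08 ± 0.31 between adult hepatocytes and stem cells (adjusted p = 3.14e-10) and −7.33 ± 0.33 between hepatocyte-like cells and adult hepatocytes (adjusted p = 1.85e-09). Between hepatocyte-like cells and stem cells it was 0.75 ± 0.31 (adjusted p = 0.099). Without hepatocyte-like replicate 3 it was 0.23 (adjusted p = 0.375), and without replicate 1 it was 1.04 (adjusted p = 0.0299), which is a call.

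Cyp1a2, which metabolises caffeine and aromatic amines, was at 4.60, 4.95 and 4.89 in hepatocyte-like cells, at 11.58, 11.75 and 11.77 in adult hepatocytes and at 4.80, 4.31, 4.83 and 4.49 in stem cells. The hepatocyte-like and stem cell ranges overlapped, and the difference was 7.09 ± 0.17 between adult hepatocytes and stem cells (adjusted p = 8.87e-12). Its neighbour in the family, Cyp1a1, which is induced by dioxin in many tissues, was at 5.17, 5.53 and 4.63 in hepatocyte-like cells, between 4.39 and 5.25 in adult hepatocytes and at 5.98, 5.44, 6.19 and 5.44 in stem cells. It was called in no comparison. Between adult hepatocytes and stem cells it differed by −0.88 ± 0.27 (adjusted p = 0.02), and by −1.07 (adjusted p = 0.0166) without adult replicate 3, which is a call.

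The Cyp2 family held 31 of the 53 genes higher in adult hepatocytes. All 4 Cyp2a genes were higher in adult hepatocytes than in stem cells, among them Cyp2a4, a steroid hydroxylase, by 7.60 ± 0.21, Cyp2a12 by 7.43 ± 0.20 and Cyp2a5, the coumarin hydroxylase, by 4.09 ± 0.16. Of 5 Cyp2b genes 3 were higher, Cyp2b9 by 8.80 ± 0.36, Cyp2b13 by 7.94 ± 0.17 and Cyp2b10, the classical target of the constitutive androstane receptor, by 5.73 ± 0.26. Of 14 Cyp2c genes, whose enzymes oxidise drugs and arachidonic acid, 11 were higher, led by Cyp2c69 at 8.47 ± 0.25 and Cyp2c29 at 8.30 ± 0.33. A second probe set of Cyp2c29 averaged 3.44 in adult hepatocytes and 3.15 in stem cells, and with both averaged the value was 4.30 (adjusted p = 1.02e-08). Of 9 Cyp2d genes 5 were higher, led by Cyp2d26 at 7.52 ± 0.14. Of 7 Cyp2j genes 3 were higher, Cyp2j5, an arachidonic acid epoxygenase, by 8.53 ± 0.25, Cyp2j6 by 3.39 ± 0.20 and Cyp2j9 by 1.21 ± 0.20. Cyp2f2, which activates naphthalene, was higher by 7.60 ± 0.27, or by 4.94 (adjusted p = 3.81e-09) with its second probe set averaged in, and Cyp2u1, an enzyme of long-chain fatty acids, by 3.21 ± 0.25. Members of a subfamily are near-identical copies in places and can share signal on an array, so the difference of any 1 of them is uncertain in a way its error does not show.

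Of the 7 Cyp3a genes, the main group of drug-metabolising enzymes and targets of the pregnane X receptor, 6 were higher in adult hepatocytes than in stem cells. Cyp3a16 was at 2.17, 2.03 and 3.64 in hepatocyte-like cells and at 10.92, 10.47 and 10.59 in adult hepatocytes, and its difference from stem cells was 8.11 ± 0.32 in adult hepatocytes and 0.06 ± 0.32 in hepatocyte-like cells. Cyp3a11, the major such enzyme of mouse liver, was at 3.90, 4.55 and 3.73 in hepatocyte-like cells, at 9.93, 8.84 and 8.67 in adult hepatocytes and at 3.93, 4.05, 4.01 and 3.67 in stem cells. The hepatocyte-like and stem cell ranges overlapped, and the 95% interval of their difference ran from −0.48 to 0.77. A probe set shared by Cyp3a11, Cyp3a41a, Cyp3a41b and Cyp3a44 was at 3.31, 3.36 and 6.53 in hepatocyte-like cells, against a stem cell mean of 3.57. Its high value in replicate 3 cannot be given to a single gene. Cyp3a57 was the exception, at 0.67 ± 0.24 between adult hepatocytes and stem cells (adjusted p = 0.0392), below the size needed for a call.

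In the Cyp4 family 7 of 15 genes were higher in adult hepatocytes than in stem cells and 1, Cyp4f39, was lower. Cyp4f14 and Cyp4f15, whose enzymes act on fatty acids and leukotrienes, were higher by 7.47 ± 0.20 and 6.46 ± 0.20. Cyp4a14, a fatty acid hydroxylase induced by the receptor PPAR alpha, was at 3.79, 3.87 and 3.71 in hepatocyte-like cells, at 7.97, 10.25 and 9.06 in adult hepatocytes and at 3.63, 3.84, 3.67 and 3.83 in stem cells. Every adult array stood above every other array, but the adult arrays spread over more than 2 units. Cyp4b1 and Cyp4a31 were higher by 1.22 ± 0.18 and 1.23 ± 0.20.

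**Figure D2:**
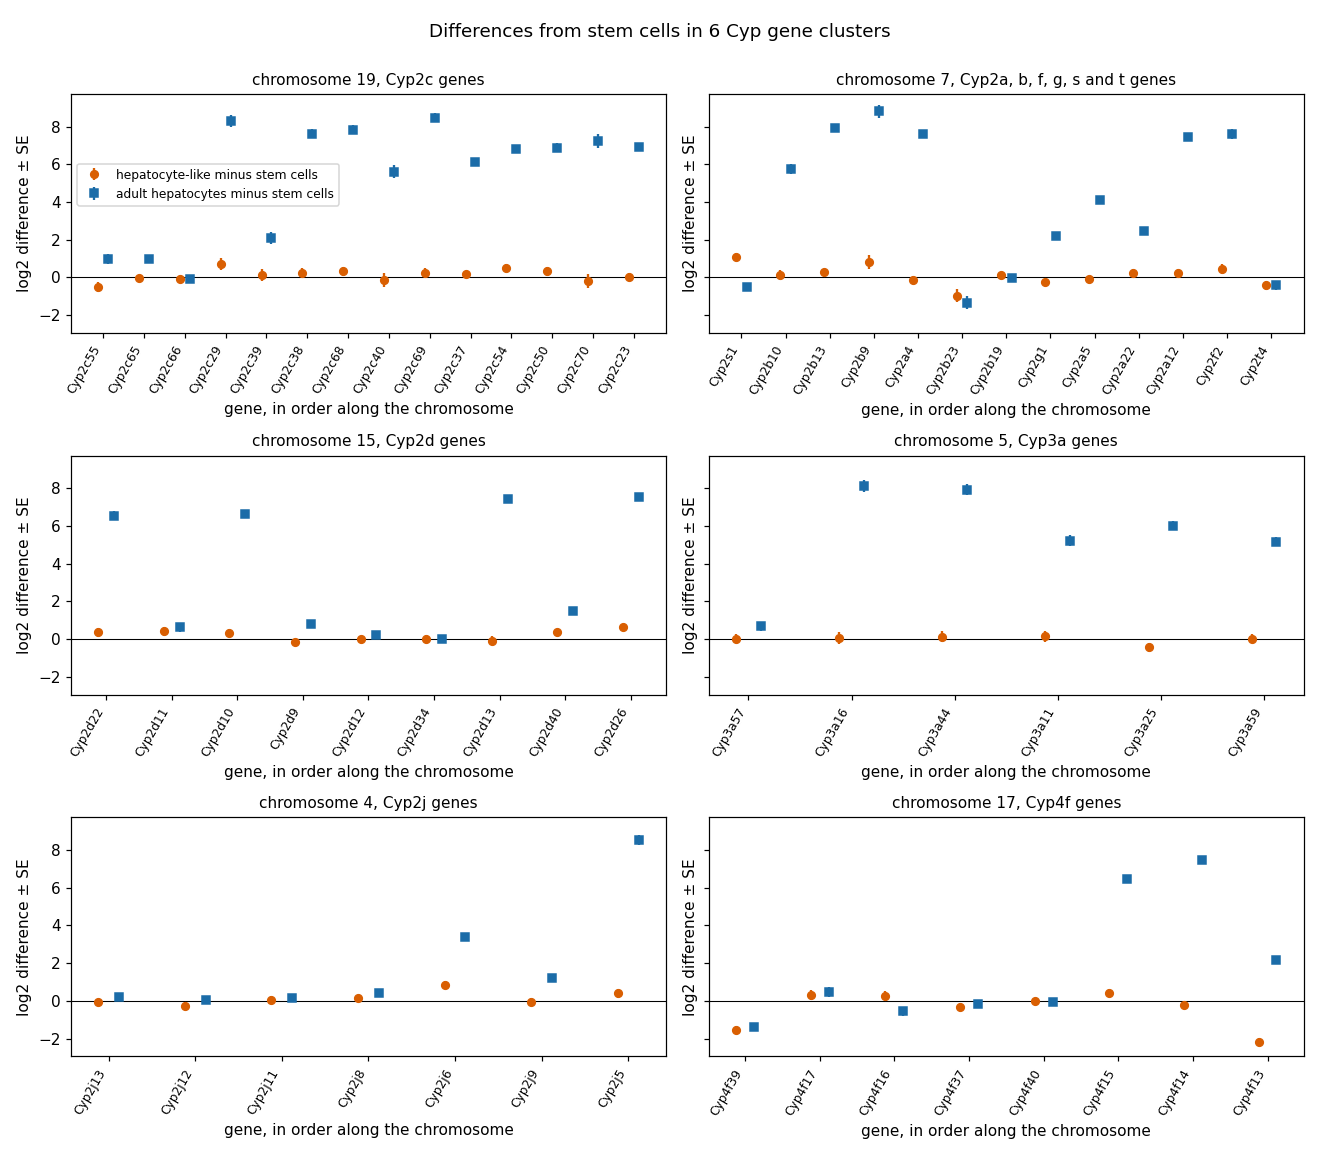
Difference from stem cells (log2, point ± standard error) of hepatocyte-like cells (orange) and adult hepatocytes (blue) for the genes of 6 Cyp clusters, in their order along the chromosome. The adult points rise to 8.80 for some neighbours and stay near 0 for others, while the hepatocyte-like points lie between −2.16 and 1.07.

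Many Cyp genes lie side by side, and the calls between adult hepatocytes and stem cells are given here in their order along the chromosome. In the Cyp2c row on chromosome 19 (gene order from RefSeq, GRCm38.p6), the neighbours Cyp2c55, Cyp2c65 and Cyp2c66 were not called between adult hepatocytes and stem cells, and the other 11 measured genes of the subfamily were all higher. Cyp2c55 and Cyp2c65 missed only the size: Cyp2c55 differed by 0.99 ± 0.27 (adjusted p = 0.0106) and Cyp2c65 by 0.95 ± 0.17 (adjusted p = 4.07e-04). Cyp2c55 was called with both its probe sets averaged (1.46), after another quantile normalization (1.05), with the replicate block (1.01), and without adult replicate 1 (1.23), stem cell replicate 1 (1.06) or stem cell replicate 4 (1.01). In the Cyp2j row on chromosome 4, Cyp2j13, Cyp2j12, Cyp2j11 and Cyp2j8 were not called and the adjoining Cyp2j6, Cyp2j9 and Cyp2j5 were higher. In the Cyp4f row on chromosome 17, Cyp4f39 was lower, Cyp4f17, Cyp4f16, Cyp4f37 and Cyp4f40 were not called, and Cyp4f15, Cyp4f14 and Cyp4f13 were higher. In the Cyp2d row on chromosome 15, Cyp2d11, Cyp2d9, Cyp2d12 and Cyp2d34 were not called and stood among the 5 that were higher. On chromosome 7 the uncalled Cyp2b19 and the lower Cyp2b23 lay between Cyp2a4 and Cyp2g1, which were higher by 7.60 ± 0.21 and 2.18 ± 0.18. Cyp2b23 was at 4.28, 3.93 and 4.42 in hepatocyte-like cells, at 3.47, 3.58 and 4.43 in adult hepatocytes and at 4.55, 5.85, 4.54 and 5.72 in stem cells, so its call (−1.34 ± 0.35, adjusted p = 0.00705) rests on dim signals.

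All 7 genes of bile acid synthesis and cholesterol side-chain oxidation were higher in adult hepatocytes than in stem cells and lower in hepatocyte-like cells than in the adult ones, and none was called between hepatocyte-like cells and stem cells. Cyp7a1, the rate-limiting enzyme of bile acid synthesis, was at 2.79, 2.91 and 3.14 in hepatocyte-like cells, at 11.16, 10.65 and 11.04 in adult hepatocytes and at 3.07, 3.43, 3.00 and 2.75 in stem cells. Hepatocyte-like and stem cell arrays were equally dim. The differences were −8.00 ± 0.21 between hepatocyte-like cells and adult hepatocytes (adjusted p = 2.14e-11) and 7.89 ± 0.19 between adult hepatocytes and stem cells (adjusted p = 8.87e-12), and the 95% interval of hepatocyte-like minus stem cells ran from −0.53 to 0.30. Cyp8b1, which sets the balance of cholic acid, was higher in adult hepatocytes than in stem cells by 4.85 ± 0.20. Cyp27a1, the mitochondrial sterol hydroxylase of the alternative route, was higher by 5.87 ± 0.19, and Cyp2c70, which makes the muricholic acids of mice, by 7.25 ± 0.37.

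Cyp7b1 and Cyp39a1 hydroxylate oxysterols. Cyp7b1 was higher in adult hepatocytes than in stem cells by 4.03 ± 0.25, and hepatocyte-like cells differed from stem cells by −0.75 ± 0.25 (adjusted p = 0.0392), below the size for a call. Cyp39a1 was at 5.72, 5.18 and 7.05 in hepatocyte-like cells, at 9.34, 8.31 and 8.56 in adult hepatocytes and at 5.16, 5.17, 4.94 and 4.67 in stem cells. The 3 hepatocyte-like arrays all lay above the stem cell arrays, replicate 2 by very little, and the difference of 0.997 ± 0.37 had an adjusted p of 0.0659. Without hepatocyte-like replicate 3 it was 0.46 (adjusted p = 0.279), and without replicate 2 it was 1.40 (adjusted p = 0.0136), which is a call. Cyp46a1, the cholesterol hydroxylase best known from brain, had the smallest adult difference of the group, 1.40 ± 0.22.

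A search of the RefSeq promoter windows (GRCm38.p6), which run from before to just after each annotated start, covered 69 of the 89 genes in 77 windows. The letters CAAAGTCCA, a form of the site bound by the nuclear receptor HNF4A, were sought on both strands. They stood in 8 of the 77 windows (10.4%) and in 0.475% of all 32851 windows. The 8 genes are shown because 7 of them, all but Cyp2c65, were higher in adult hepatocytes than in stem cells, and 7 of the 46 windows of such genes held the letters, against 1 of the 31 other windows. The stretches of Cyp2c40 and Cyp2c69 are identical and that of Cyp2c68 is nearly so, and such copies do not count as separate cases. Each line gives the gene strand with the 9 letters in capitals.
Cyp2c40, chr19:39812831-39812879 (minus strand): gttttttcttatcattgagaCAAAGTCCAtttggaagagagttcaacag
Cyp2c65, chr19:39060870-39060918 (plus strand): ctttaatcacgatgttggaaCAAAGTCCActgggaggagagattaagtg
Cyp2c68, chr19:39741150-39741198 (minus strand): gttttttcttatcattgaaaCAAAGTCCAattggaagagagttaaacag
Cyp2c69, chr19:39886816-39886864 (minus strand): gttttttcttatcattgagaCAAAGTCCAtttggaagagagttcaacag
Cyp2c70, chr19:40187322-40187370 (minus strand): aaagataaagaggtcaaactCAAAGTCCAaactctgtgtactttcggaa
Cyp3a11, chr5:145879935-145879983 (minus strand): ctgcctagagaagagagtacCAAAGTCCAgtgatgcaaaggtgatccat
Cyp3a16, chr5:145469794-145469842 (minus strand): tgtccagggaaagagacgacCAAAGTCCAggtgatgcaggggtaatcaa
Cyp8b1, chr9:121916344-121916392 (minus strand): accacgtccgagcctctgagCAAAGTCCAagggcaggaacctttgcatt
The match begins 45 bases before the start in Cyp2c40 and 116 bases before it in Cyp2c65, with the other 6 in between. It is a match of letters, and binding was not measured. The letters CAAAGGTCA, another form of a site for nuclear receptors, stood in 4 of the 77 windows, against 0.478% of all windows. These 4 belong to 3 genes of 1 subfamily, Cyp3a25 with 2 windows, Cyp3a57 and Cyp3a59, and may not be separate cases. TATAAA, on both strands, stood in 28 of the 77 windows (36.4%) against 13.6% of all windows, in 21 of the 46 windows of genes higher in adult hepatocytes and in 7 of the 31 others.

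Of 5 steroid hormone genes measured, 1 was higher in adult hepatocytes. Cyp17a1, the hydroxylase and lyase on the way to androgens, was at 4.48, 4.86 and 4.72 in hepatocyte-like cells, at 9.86, 8.66 and 9.13 in adult hepatocytes and at 3.81, 3.96, 3.90 and 3.83 in stem cells. The groups did not overlap. Adult hepatocytes exceeded stem cells by 5.34 ± 0.23 (adjusted p = 1.11e-09), and hepatocyte-like cells by 0.81 ± 0.23 (adjusted p = 0.0196), below the size for a call. The adrenal enzymes Cyp11b1, Cyp11b2 and Cyp21a1 were called in no comparison. The steroidogenic cell markers Star, Nr5a1 and Mc2r were not called either, and Hsd3b1 was higher in adult hepatocytes than in stem cells by 2.38 ± 0.40.

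Vitamin D is first hydroxylated in liver, by Cyp2r1, and then activated by Cyp27b1 and broken down by Cyp24a1 in kidney. Cyp2r1 was at 3.63, 3.36 and 3.63 in hepatocyte-like cells, at 8.75, 8.01 and 8.40 in adult hepatocytes and at 3.66, 3.36, 3.87 and 3.17 in stem cells, and adult hepatocytes exceeded stem cells by 4.87 ± 0.21. Hepatocyte-like cells and stem cells overlapped and differed by 0.02 ± 0.21. Neither Cyp27b1 nor Cyp24a1 was called, at −0.08 ± 0.22 and 0.37 ± 0.20 between adult hepatocytes and stem cells.

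Several Cyp genes are known to be higher in female or in male mouse liver. Of 10 genes of the female-biased list 8 were measured, and all 8 were higher in adult hepatocytes than in stem cells, with a median difference of 7.93. Cyp2b9 was at 3.46, 4.38 and 5.53 in hepatocyte-like cells, at 12.32, 12.45 and 12.54 in adult hepatocytes and at 3.90, 3.50, 3.36 and 3.78 in stem cells. Cyp2a4 was at 11.12, 11.15 and 11.22 in adult hepatocytes, and Cyp3a44 at 11.27, 11.16 and 11.15. These 3 genes hardly differed among the adult arrays, whereas Cyp4a14 (SD 1.14) and Cyp2c40 (SD 0.92), also on the list, were the most variable of all 89 genes there.

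Of the 4 male-biased genes 1, Cyp7b1, was higher in adult hepatocytes than in stem cells. Cyp2d9, a male-specific steroid hydroxylase, was at 2.52, 2.61 and 2.79 in hepatocyte-like cells, at 3.74, 3.81 and 3.26 in adult hepatocytes and at 3.02, 2.66, 2.69 and 2.88 in stem cells. The adult arrays were the highest but dim, and exceeded stem cells by 0.79 ± 0.18 (adjusted p = 0.00246), below the size for a call. Cyp4a12a and Cyp4a12b, which the symbol rule leaves out because of their last letter, had adult levels of 4.57, 3.66 and 3.56 and of 5.28, 4.83 and 5.32, and were not called. Xist, the RNA that silences the second X chromosome in female cells, was at 4.20, 3.75 and 3.90 in hepatocyte-like cells, at 10.17, 10.38 and 10.06 in adult hepatocytes and at 4.23, 4.26, 4.62 and 4.52 in stem cells. The Y-linked Kdm5d, Uty and Eif2s3y were called in no comparison, with group means between 2.91 and 3.57. Xist was thus high in the adult arrays alone, while the Y-linked genes were dim in all 3 groups. In the adult arrays this is the pattern of female cells, though the labels give no sex. In hepatocyte-like cells and stem cells both Xist and the Y-linked genes were low, so these values do not give their sex. The part of sex in these Cyp results was not tested, and sex and cell kind cannot be told apart for them.

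**Figure D3:**
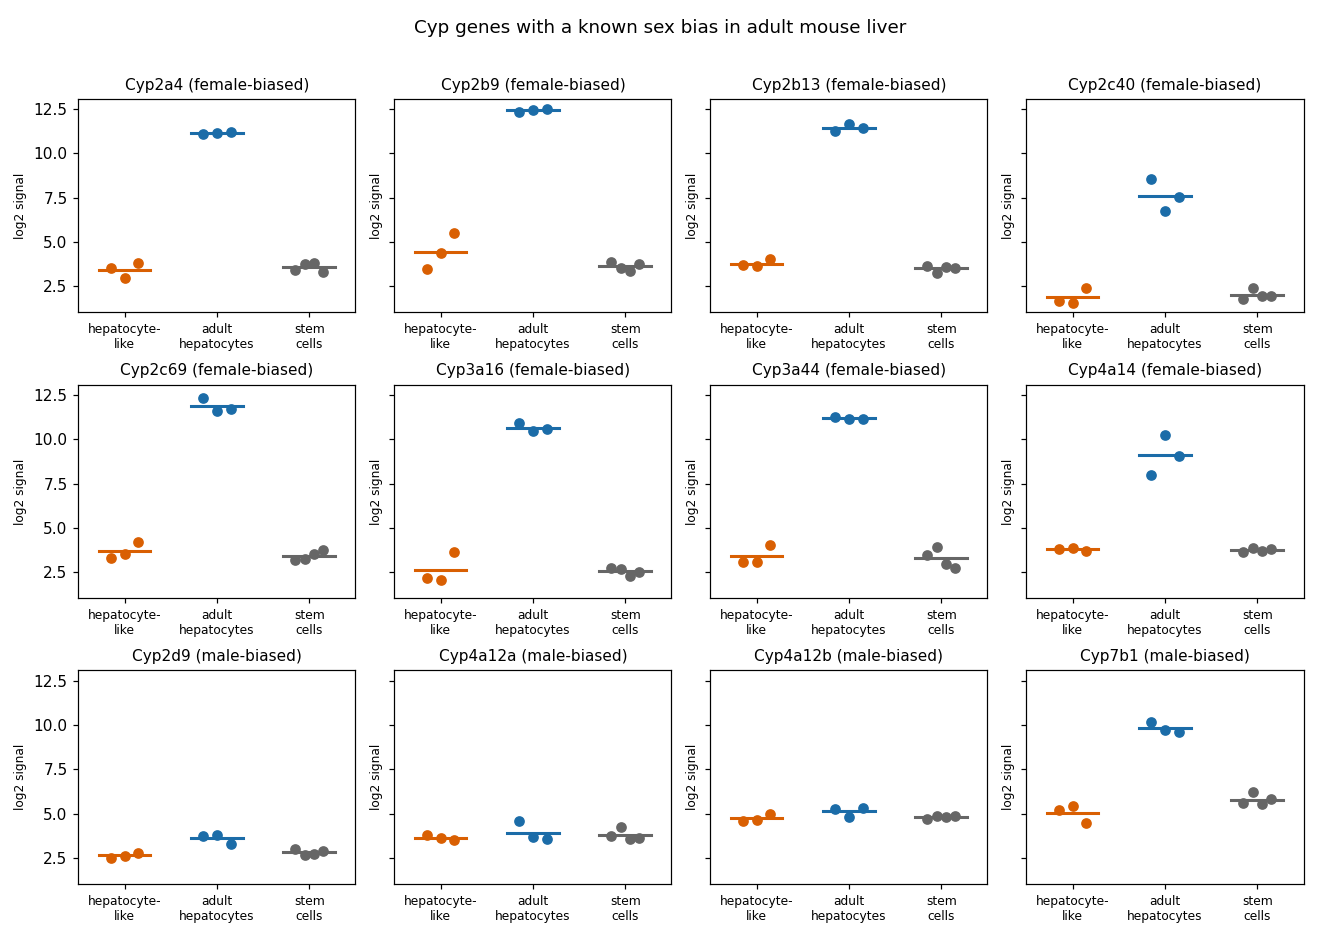
Log2 level of 8 female-biased and 4 male-biased Cyp genes of mouse liver on each array (dots) with the group mean (line), for hepatocyte-like cells, adult hepatocytes and stem cells. The female-biased genes are all called higher in adult hepatocytes than in stem cells, and of the male-biased genes Cyp7b1 alone is.

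Between hepatocyte-like cells and stem cells 7 Cyp genes were called. The largest difference was that of Cyp1b1, a target of the aryl hydrocarbon receptor that hydroxylates oestradiol and is expressed mainly outside the liver. It was at 5.93, 7.08 and 7.28 in hepatocyte-like cells, at 4.23, 4.81 and 4.17 in adult hepatocytes and at 4.37, 3.96, 4.14 and 3.98 in stem cells. All hepatocyte-like arrays lay above all others, and the adult and stem cell ranges overlapped. The differences were 2.65 ± 0.29 from stem cells (6.27-fold, adjusted p = 1.98e-05) and 2.36 ± 0.31 from adult hepatocytes (adjusted p = 4.85e-05). In the same 3 hepatocyte-like arrays the connective tissue marker Col1a1 was at 12.80, 11.92 and 9.80, and Acta2, another, at 12.54, 12.57 and 11.44. The part of connective tissue-like cells in the Cyp1b1 result was not tested. Ahr, the gene of the receptor, exceeded its stem cell level by 1.21 ± 0.28 (adjusted p = 0.00514). In adult hepatocytes Ahr exceeded its stem cell level by 2.18 ± 0.28, while Cyp1b1 differed there by 0.29 ± 0.29 and was not called.

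Cyp2s1, which is best known from epithelia of airway, gut and skin, was at 7.19, 7.59 and 7.11 in hepatocyte-like cells, at 5.30, 6.04 and 5.79 in adult hepatocytes and at 6.05, 6.07, 6.58 and 6.21 in stem cells. The hepatocyte-like arrays were the highest, and exceeded adult hepatocytes by 1.59 ± 0.23 (adjusted p = 1.01e-04) and stem cells by 1.07 ± 0.21 (2.10-fold, adjusted p = 0.00189). The difference from stem cells fell under 1, and so was no longer called, when hepatocyte-like replicate 2 was left out (0.92, adjusted p = 0.0117) and when arrays were centred on their medians (0.99, adjusted p = 0.0028). Krt19, a keratin of bile ducts and other simple epithelia and 1 of 4 bile duct markers, exceeded its stem cell level by 4.06 ± 0.27. Epcam, another of the 4, went the other way, at −0.89 ± 0.23 (adjusted p = 0.0107), below the size for a call. The mean over the 4 was 7.86 to 8.83 in hepatocyte-like cells, 5.17 to 5.36 in adult hepatocytes and 6.17 to 6.41 in stem cells. The part of bile duct-like cells in the Cyp2s1 result was not tested.

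Cyp26a1, the main enzyme that clears retinoic acid, was intermediate. Its levels were 5.99, 5.33 and 6.57 in hepatocyte-like cells, 7.35, 6.93 and 8.02 in adult hepatocytes and 4.37, 4.70, 4.84 and 4.26 in stem cells, and no 2 groups overlapped. Hepatocyte-like cells exceeded stem cells by 1.42 ± 0.30 (adjusted p = 0.00315) and fell short of adult hepatocytes, with a difference of −1.47 ± 0.32 (adjusted p = 0.00286). Of its relatives, Cyp26b1 differed by 0.57 ± 0.28 between hepatocyte-like cells and stem cells (adjusted p = 0.169) and Cyp26c1 by −0.10 ± 0.17 (adjusted p = 0.753). Adult hepatocytes exceeded stem cells in Cyp26b1 by 0.95 ± 0.28 (adjusted p = 0.0161), under 1, and by 1.25 (adjusted p = 0.00317) without adult replicate 1, which is a call. Cyp26b1 was also called after another quantile normalization (1.07), with the replicate block (1.025), and without stem cell replicate 1 (1.01), 3 (1.02) or 4 (1.025). Cyp26a1 is the textbook target of the retinoic acid receptors, and its promoter window is shown because a direct repeat of AGTTCA spaced by 5 bases (searched on both strands) is rare: it stood in 8 of all 32851 windows (0.0244%) and, among the Cyp genes, in this window alone. The repeat, with its spacer in capitals, reads AGTTCA on the strand opposite to the gene, and its first printed base lies 32 bases before the start.
Cyp26a1, chr19:37697558-37697857 (plus strand): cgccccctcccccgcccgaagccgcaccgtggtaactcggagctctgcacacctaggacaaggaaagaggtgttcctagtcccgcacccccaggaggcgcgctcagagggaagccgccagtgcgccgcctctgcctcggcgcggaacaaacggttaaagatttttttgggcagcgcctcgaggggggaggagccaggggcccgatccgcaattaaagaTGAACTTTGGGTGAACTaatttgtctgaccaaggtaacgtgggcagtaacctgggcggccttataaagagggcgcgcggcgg

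Cyp4v3, a fatty acid hydroxylase whose human counterpart is CYP4V2, was the only gene with a mean of 11 or more in adult hepatocytes that was called higher in hepatocyte-like cells than in stem cells. It was at 5.10, 5.88 and 5.72 in hepatocyte-like cells, at 11.29, 11.33 and 11.30 in adult hepatocytes and at 4.33, 4.30, 3.63 and 3.69 in stem cells. The groups did not overlap. Hepatocyte-like cells exceeded stem cells by 1.58 ± 0.23 (adjusted p = 1.96e-04) and differed from adult hepatocytes by −5.74 ± 0.24 (adjusted p = 9.55e-10). A probe set annotated to both Cyp4v3 and Klkb1 averaged 4.35 in hepatocyte-like cells and 4.26 in stem cells. It did not show the rise over stem cells, so that rise rests on the set of Cyp4v3 alone.

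The lower genes were Cyp4f13, Cyp4f39 and Cyp11a1. Cyp4f13, a fatty acid hydroxylase, was at 5.02, 5.03 and 5.59 in hepatocyte-like cells, at 9.44, 9.67 and 9.55 in adult hepatocytes and at 7.10, 7.58, 7.16 and 7.66 in stem cells. Here stem cells were intermediate: hepatocyte-like cells differed from them by −2.16 ± 0.20 (adjusted p = 4.74e-06) and from adult hepatocytes by −4.34 ± 0.21 (adjusted p = 3.63e-09). Cyp4f39, whose human counterpart makes skin barrier lipids, was at 4.71, 4.77 and 4.29 in hepatocyte-like cells, at 4.92, 4.66 and 4.55 in adult hepatocytes and at 5.67, 6.30, 6.36 and 6.10 in stem cells. Hepatocyte-like and adult arrays overlapped, and both lay below the stem cells, with differences of −1.52 ± 0.20 for hepatocyte-like cells (adjusted p = 9.86e-05) and −1.40 ± 0.20 for adult hepatocytes (adjusted p = 7.64e-05).

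Cyp11a1, which cuts the cholesterol side chain in steroid-making cells, was at 4.38, 4.55 and 4.40 in hepatocyte-like cells, at 5.01, 5.35 and 5.20 in adult hepatocytes and at 5.61, 5.66, 6.06 and 5.56 in stem cells. The groups did not overlap, and hepatocyte-like cells differed from stem cells by −1.28 ± 0.16 (adjusted p = 7.84e-05). A second set of probes for this gene ran the other way, at 4.99, 5.49 and 6.21 in hepatocyte-like cells, against 4.75, 4.97, 4.41 and 4.72 in stem cells. With both averaged the difference was −0.21 (adjusted p = 0.429), so no direction is given for this gene.

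**Figure D4:**
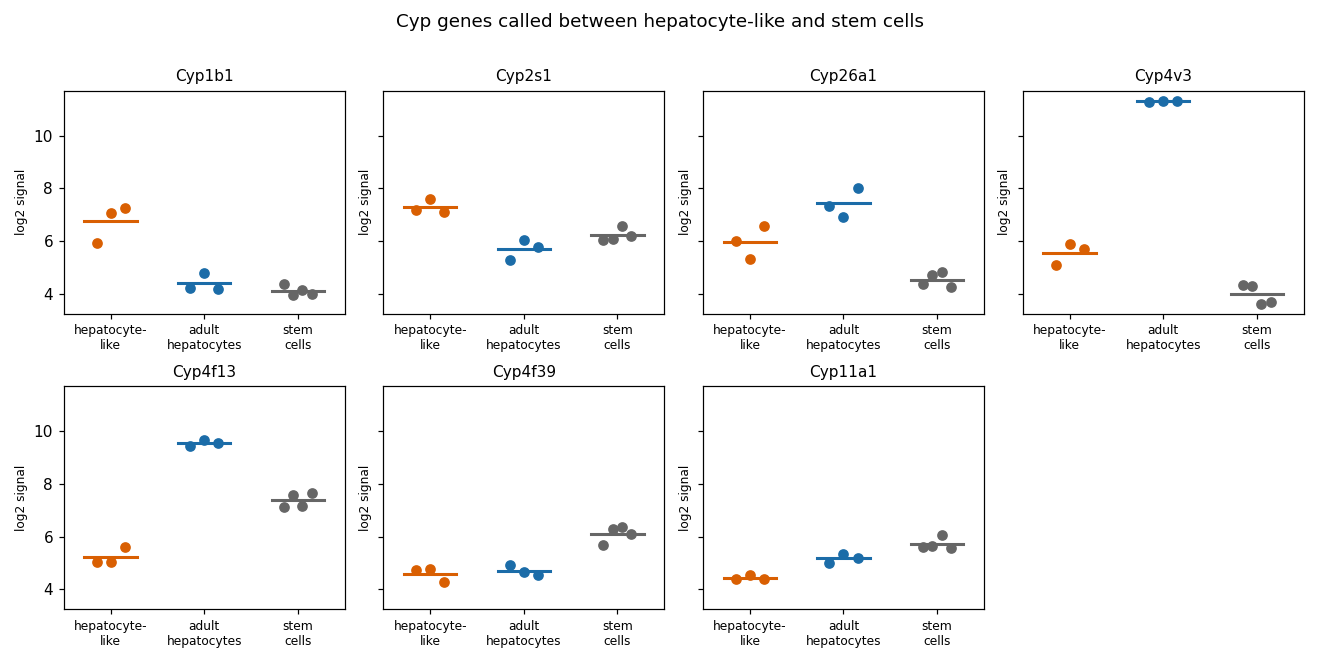
Log2 level on each array (dots) and group mean (line) of the 7 Cyp genes called between hepatocyte-like cells and stem cells, for hepatocyte-like cells, adult hepatocytes and stem cells. Cyp1b1 and Cyp2s1 are highest in hepatocyte-like cells, Cyp26a1 and Cyp4v3 lie between the other 2 groups, and Cyp4f13 is lowest in hepatocyte-like cells. The panel of Cyp11a1 shows the probe set with the higher mean, and its second probe set ran the other way. A probe set shared by Cyp4v3 and Klkb1, not drawn, did not show the rise of Cyp4v3 over stem cells.

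The promoter windows of the 4 genes higher in hepatocyte-like cells than in stem cells, counted after these calls were known and not tested, are rich in the dinucleotide CG. The median was 2 CG in the 77 Cyp windows and 7 in all 32851 windows. At least 15 CG stood in 7 Cyp windows (9.09%), those of Cyp46a1 with 31, Cyp26a1 with 26, Cyp2r1 with 22, Cyp20a1 with 20, Cyp2s1 with 17, Cyp4v3 with 17 and Cyp1b1 with 16, against 34.6% of all windows. All 4 called genes are thus among these 7. The windows of Cyp4f39 and Cyp4f13, which were lower, held 11 and 6, and those of Cyp11a1, whose probe sets differ in direction, 7 and 1. The windows of Cyp1b1, Cyp2s1 and Cyp4v3 are shown beside those of Cyp2e1 and Cyp2b9, which were higher in adult hepatocytes than in stem cells by 8.08 ± 0.31 and 8.80 ± 0.36, with 4 and 3 CG, and the CG in capitals.
Cyp1b1, chr17:79715012-79715311 (minus strand): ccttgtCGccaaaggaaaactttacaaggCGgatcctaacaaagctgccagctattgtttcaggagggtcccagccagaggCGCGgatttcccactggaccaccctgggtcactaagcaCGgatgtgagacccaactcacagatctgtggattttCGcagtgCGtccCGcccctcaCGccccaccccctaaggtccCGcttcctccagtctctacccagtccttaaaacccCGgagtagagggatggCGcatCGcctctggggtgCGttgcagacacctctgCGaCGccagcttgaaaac
Cyp2s1, chr7:25816476-25816775 (minus strand): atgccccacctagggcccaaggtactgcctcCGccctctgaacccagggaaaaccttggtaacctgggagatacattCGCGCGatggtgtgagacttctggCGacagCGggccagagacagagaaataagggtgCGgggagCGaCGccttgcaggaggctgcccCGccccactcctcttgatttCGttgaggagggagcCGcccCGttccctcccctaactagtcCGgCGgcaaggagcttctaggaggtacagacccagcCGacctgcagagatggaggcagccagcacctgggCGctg
Cyp4v3, chr8:45333114-45333413 (minus strand): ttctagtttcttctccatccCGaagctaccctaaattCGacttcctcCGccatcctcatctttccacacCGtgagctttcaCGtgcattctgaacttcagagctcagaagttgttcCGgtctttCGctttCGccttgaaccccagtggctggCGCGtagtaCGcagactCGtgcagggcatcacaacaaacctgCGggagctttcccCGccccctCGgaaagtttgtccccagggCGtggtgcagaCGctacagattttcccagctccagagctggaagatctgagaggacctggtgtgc
Cyp2e1, chr7:140763569-140763868 (plus strand): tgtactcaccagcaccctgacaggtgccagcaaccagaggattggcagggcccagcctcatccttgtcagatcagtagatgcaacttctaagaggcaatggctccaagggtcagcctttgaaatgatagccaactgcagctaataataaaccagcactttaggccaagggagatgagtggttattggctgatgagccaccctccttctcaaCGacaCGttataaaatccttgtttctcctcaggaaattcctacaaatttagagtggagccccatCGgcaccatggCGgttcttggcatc
Cyp2b9, chr7:26173159-26173458 (plus strand): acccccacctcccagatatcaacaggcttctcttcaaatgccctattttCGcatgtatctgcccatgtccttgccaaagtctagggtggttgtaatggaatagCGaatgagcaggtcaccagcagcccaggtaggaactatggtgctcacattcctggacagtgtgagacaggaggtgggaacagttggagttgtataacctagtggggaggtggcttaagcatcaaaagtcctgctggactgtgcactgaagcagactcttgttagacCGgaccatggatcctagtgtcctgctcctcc
The letters GCGTG, the core of the site bound by the aryl hydrocarbon receptor, stood on either strand in 16 of the 77 windows (20.8%), those of Cyp1a1, Cyp1b1 and Cyp4v3 among them, and in 32.4% of all windows.

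Cyp20a1, an enzyme with no settled substrate, passed the p threshold but not the size between hepatocyte-like cells and stem cells with all arrays kept. It was at 9.15, 8.86 and 8.63 in hepatocyte-like cells, at 8.37, 8.32 and 8.18 in adult hepatocytes and at 7.82, 7.96, 7.97 and 7.90 in stem cells. Hepatocyte-like arrays were the highest and stem cells the lowest, and they differed by 0.97 ± 0.16 (adjusted p = 4.43e-04), and by 1.09 without hepatocyte-like replicate 3, which is a call. Cyp2j6, at 0.87 ± 0.20 (adjusted p = 0.00541), and Cyp2d26, at 0.63 ± 0.14 (adjusted p = 0.00444), likewise passed the p threshold between hepatocyte-like cells and stem cells but not the size. Cyp2c55, known mainly from mouse colon, differed between hepatocyte-like cells and adult hepatocytes by −1.50 ± 0.29 (adjusted p = 0.00123), with 8.03, 7.35 and 6.82 in hepatocyte-like cells, 8.42, 9.26 and 9.02 in adult hepatocytes and 8.15, 7.66, 7.88 and 7.98 in stem cells. The hepatocyte-like and stem cell ranges overlapped.

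The 3 hepatocyte-like arrays were also compared over Cyp genes grouped by the signal of their probes in adult hepatocytes, which mixes expression with how brightly the probes bind. Of 18 Cyp genes with an adult mean of 11 or more, replicate 3 was above all 4 stem cell arrays in 16, replicate 1 in 5 and replicate 2 in 5. Relative to the mean of the stem cells, the median over these genes was 0.75 in replicate 3, −0.03 in replicate 1 and 0.01 in replicate 2. Among 17 genes with an adult mean of 9 to 11, replicate 3 was above all stem cell arrays in 8, replicate 1 in 3 and replicate 2 in 4, with medians of 0.50, −0.02 and 0.10. Among 13 genes with an adult mean of 7 to 9, the count was 6 in each replicate. How many of all genes lay above all 4 stem cell arrays was not counted. These counts are therefore not shown to be particular to Cyp genes. Replicate 3 thus stood apart in the first group of genes and not in the last. The same array held the most albumin transcript, with Tat, a hepatocyte enzyme gene, at 7.22 in replicate 3, against 4.40 and 4.36 in the other 2. Not all 8 hepatocyte markers followed: Apoa1 was at 6.95, 7.97 and 6.80 in replicates 1 to 3, and Ass1 at 6.68, 7.02 and 6.74. The mean over the 8 markers was 5.80, 6.33 and 7.15.

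**Figure D5:**
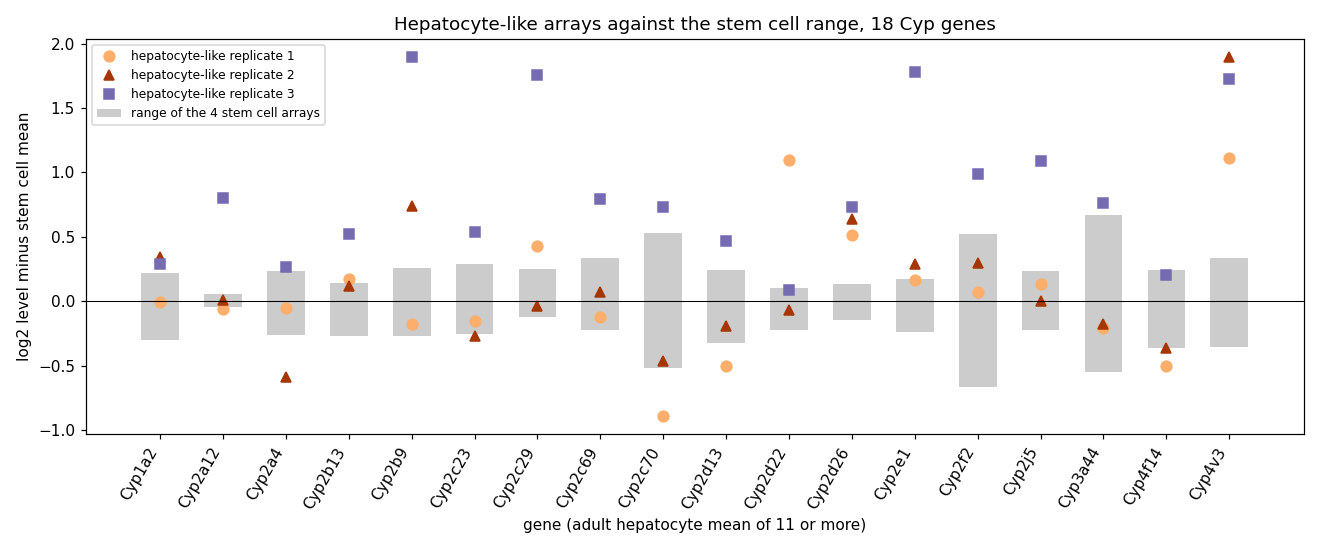
Log2 level of the 3 hepatocyte-like arrays minus the stem cell mean for the 18 Cyp genes with an adult mean of 11 or more, one symbol per replicate, with grey bars for the range of the 4 stem cell arrays. Replicate 3 lies above the bar in 16 genes and replicates 1 and 2 in 5 each. The share of all genes above the stem cell range was not counted.

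Among the stem cell markers, Nanog was at 7.12 in replicate 3, against 5.08 and 5.09 in replicates 1 and 2. Tdgf1 was at 6.50, against 3.90 and 3.83. Sox2, Zfp42 and Pou5f1 were also highest in replicate 3, Pou5f1 by little (5.51, 5.61 and 5.69 in replicates 1 to 3). Esrrb went the other way and was lowest in replicate 3, at 5.23, 4.71 and 4.46. The part of adult or stem cell RNA in this array was not tested. Without replicate 3, 5 Cyp genes were higher and 3 lower in hepatocyte-like cells than in stem cells, the added one being Cyp20a1, and 2 were higher and 55 lower than in adult hepatocytes. Leaving out another array gave replicate 3 more weight: without replicate 1, Cyp2b9 was called higher in hepatocyte-like cells than in stem cells (1.32, adjusted p = 0.00388) as well as Cyp2e1, and without replicate 2 so were Cyp2c29 (1.09, adjusted p = 0.021) and Cyp39a1. Without replicate 3 the difference was 0.28 (adjusted p = 0.47) for Cyp2b9 and 0.20 (adjusted p = 0.546) for Cyp2c29.

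The adult arrays varied most in Cyp4a14 (SD 1.14, n = 3), Cyp2c40 (SD 0.92) and Cyp2c39 (SD 0.82), where the median SD over the 89 genes was 0.24. Adult replicate 1 was the lowest in Cyp4a14 but the highest in Cyp2c40, at 8.58, against 6.75 and 7.53 in the other 2, and in Cyp2c39, at 7.48, against 6.76 and 5.84. It was also the highest in Cyp3a11 and Cyp17a1. The same array was the lowest in Dbp and Tef, transcription factors of the daily cycle that act on Cyp genes, with Dbp at 8.39, against 10.19 and 9.88, and Tef at 6.36, against 7.82 and 7.54. Hlf, another factor of this kind, was lowest in replicate 3, at 7.37, 8.05 and 6.73 in the adult arrays. The time of sampling is not in the labels, and its part was not tested.

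Cyp enzymes need electrons and haem. Of 6 measured electron transfer partners, 4 were higher in adult hepatocytes than in stem cells and none was called between hepatocyte-like cells and stem cells, with Cyb5a, a cytochrome that feeds electrons to Cyp enzymes, higher in adult hepatocytes by 2.71 ± 0.22, Pgrmc1 by 2.63 ± 0.14 and Fdx1, the donor of the mitochondrial enzymes, by 1.95 ± 0.20. Of 11 genes of haem synthesis and breakdown, 5 were higher and 1 lower in adult hepatocytes than in stem cells. Alas1, the rate-limiting enzyme of haem synthesis in liver, was higher by 2.74 ± 0.19, and Hmox1, which breaks haem down, differed by −1.83 ± 0.24. In hepatocyte-like cells Urod, a haem synthesis enzyme, differed from stem cells by −1.26 ± 0.18 (adjusted p = 1.59e-04) and Blvrb by −1.68 ± 0.29 (adjusted p = 6.57e-04).

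Of 26 measured regulators of Cyp genes, 21 were higher in adult hepatocytes than in stem cells and none lower. Cebpa was higher by 5.05 ± 0.23, Nr1h4, the bile acid receptor, by 4.98 ± 0.16, Ppara by 4.84 ± 0.21 and Hnf4a, the gene of HNF4A, by 4.44 ± 0.22. Nr1i3, the constitutive androstane receptor, was higher by 4.41 ± 0.18 and Nr1i2, the pregnane X receptor, by 4.35 ± 0.16. Hepatocyte-like cells did not pass a call for any of these 6 against stem cells. Hnf4a was at 6.66, 7.13 and 6.12 in hepatocyte-like cells, against 5.78 to 6.21 in stem cells, a difference of 0.65 ± 0.22 (adjusted p = 0.0457), and Nr1i2 and Nr1i3 differed by −0.14 ± 0.16 and −0.04 ± 0.18.

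Against stem cells, 5 regulators were higher in hepatocyte-like cells: Foxa1 by 1.67 ± 0.47 (adjusted p = 0.0167), Bcl6, Nr3c1, Ahr and Cebpb. Without hepatocyte-like replicate 2 the Foxa1 difference was 0.94 (adjusted p = 0.0431). Nr5a2, a receptor that acts on Cyp7a1 and Cyp8b1 and is also active in stem cells, was at 5.09, 4.92 and 5.58 in hepatocyte-like cells, at 9.64, 9.61 and 9.62 in adult hepatocytes and at 9.35, 9.13, 9.52 and 8.97 in stem cells. Hepatocyte-like cells stood alone at the low end, with a difference of −4.05 ± 0.19 from stem cells (adjusted p = 1.90e-08) and −4.43 ± 0.20 from adult hepatocytes (adjusted p = 1.84e-09).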

How the data were processed

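RNA of the 10 samples was isolated with TRIzol, cleaned on columns, labelled with biotin and hybridised by the Affymetrix protocol, per the labels. The authors deposited log2 values of 41345 transcript clusters. Per the submitters' processing notes, Transcriptome Analysis Console, R 3.3.1, oligo 1.38.0 and RMA were used, in roles not stated. The log2 scale was inferred from the range of 1.27 to 13.58. Build and summarisation level were not given in the sources used here, and no probe could be set against background.

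A gene was named from clusters with 1 symbol in the platform annotation (23521 clusters), and the cluster with the highest mean over the 10 arrays was kept. All 89 Cyp identifiers were found in RefSeq (GRCm38.p6) under the same symbol. RefSeq also lists Cyp19a1, Cyp2c67, Cyp2j7, Cyp4a10 and Cyp4a32, which were not analysed here as single genes.

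Groups came from the cell type label. All 10 arrays entered 1 limma 3.58.1 fit in R 4.3.3 (lmFit and eBayes, 2-sided, 7 residual degrees of freedom, prior 5.34) with 3 group means, and p-values were adjusted by Benjamini-Hochberg over 22180 genes. The script was tested on simulated data. Named genes are those called against stem cells, those with the highest signal in each group and the leaders of each role or subfamily. The members, lists and rules were chosen with earlier results of these data known.

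Alternatives were another quantile normalization, centring on the median, leaving out genes below 5.5 in all groups, the mean over clusters, a trended and robust variance, a fit of 2 groups alone, each array left out, replicate numbers as a block, and the adjusted p alone. Figures were drawn with matplotlib 3.10.9.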

Additional observations from a re-analysis of the deposited data

Results flagged for a closer look

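The 4 stem cell arrays were searched for a single array far from the others in each of the 89 Cyp genes, and 3 genes had one, while chance alone would mark about 1 in 20. Groups of 3 arrays were too small to search. For Cyp26b1, stem cell replicate 2 was at 4.90 and the other 3 arrays lay between 5.69 and 5.73. For Cyp2c65, stem cell replicate 1 was at 2.29 and the others lay between 2.51 and 2.55. For Cyp2d22, stem cell replicate 4 was at 4.60 and the others lay between 4.87 and 4.93.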

How the results depend on the processing

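The 53 Cyp genes higher in adult hepatocytes than in stem cells, and the 54 lower in hepatocyte-like cells than in the adult ones, were all called again under each alternative that tested them. Of the 4 genes higher in hepatocyte-like cells than in stem cells, 3 were, and of the 3 lower 2, the exceptions being Cyp2s1 and Cyp11a1 as given above. Of 225 results for single named genes, 200 never changed their call, 25 did and 0 reversed. With the adjusted p alone and no minimum size, the Cyp counts were 4 higher in hepatocyte-like cells than in the adult ones, 4 lower in adult hepatocytes than in stem cells and 8 higher in hepatocyte-like cells than in stem cells. All genes then gave 4762 higher and 3241 lower in hepatocyte-like cells than in the adult ones, 4058 higher in adult hepatocytes than in stem cells, and 3221 higher and 3169 lower in hepatocyte-like cells than in stem cells. With dim genes left out, the Cyp median was −5.37 between hepatocyte-like cells and adult hepatocytes and 5.43 between adult hepatocytes and stem cells. This setting kept each gene whose mean reached the level for dim signals in any group. Of the Cyp genes, 59 reached it in adult hepatocytes, 16 in hepatocyte-like cells and 12 in stem cells. The filter thus favoured genes high in adult hepatocytes, and the larger medians are not separate evidence. In this setting 1 Cyp gene was lower in adult hepatocytes than in stem cells.

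With each array left out, the Cyp counts ranged from 2 to 3 higher and 54 to 55 lower in hepatocyte-like cells against adult hepatocytes, from 53 to 56 higher and 2 to 3 lower in adult hepatocytes against stem cells, and from 4 to 6 higher and 3 to 4 lower in hepatocyte-like cells against stem cells. With the replicate block the counts were 2 and 54, 55 and 2, and 4 and 3. Same-numbered arrays deviated together with r from −0.19 to 0.14. With so few arrays this does not settle whether the numbers pair the samples, and the labels do not say.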

Other observations

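The array also held 6 probe sets annotated to several genes with a Cyp gene among them, which were named for no single gene. The set shared by Cyp3a41a, Cyp3a41b, Cyp3a11 and Cyp3a44 was at 3.31, 3.36 and 6.53 in hepatocyte-like cells, at 12.60, 12.38 and 12.49 in adult hepatocytes and at 3.57 ± 0.14 in stem cells (SD, n = 4). Replicate 3 of the hepatocyte-like cells was again the highest of its group. The set shared by Cyp4a10 and Cyp4a31 averaged 3.17 ± 0.78 in hepatocyte-like cells and 10.06 ± 0.27 in adult hepatocytes (SD, n = 3 each), with 2.44 ± 0.31 in stem cells (SD, n = 4). The set shared by Cyp2c67 and Cyp2c68 averaged 3.27 ± 0.57 in hepatocyte-like cells and 11.13 ± 0.08 in adult hepatocytes (SD, n = 3 each). The set shared by Cyp4v3 and its neighbour Klkb1, the prekallikrein gene, averaged 4.35 ± 0.23 in hepatocyte-like cells and 4.26 ± 0.16 in stem cells (SD, n = 3 and 4), unlike the set of Cyp4v3 alone, which was higher in hepatocyte-like cells.

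Second probe sets existed for 4 Cyp genes. That of Cyp2c29 averaged 3.44 ± 0.56 in adult hepatocytes and 3.15 ± 0.44 in stem cells, where the set used above showed a large difference. That of Cyp2f2 averaged 7.14 ± 0.99 in adult hepatocytes and 4.87 ± 0.29 in stem cells, and that of Cyp2c55 5.64 ± 0.77 in adult hepatocytes and 3.70 ± 0.44 in stem cells (SD, n = 3 and 4).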
